A study of Mus musculus with 6 samples.

Results

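Expression of 31 genes of mitochondrial fatty acid oxidation and of the PPAR programme was described in aortic roots of mice labelled Sost-/- and Sost+/+. The members were taken from a list of gene symbols, and all 31 were found among the 23420 genes of the count table. The aortic root is where the aorta leaves the heart, holds the valve leaflets and adjoins ventricular muscle. RNA from 3 roots labelled Sost-/- and from 3 roots labelled Sost+/+ was sequenced in bulk, 1 library for each root. Both groups were on a C57BL6/J background, were 12 months old and had eaten a high-cholesterol diet for 8 months from an age of 4 months, after standard chow. The comparison asks how loss of Sost, the gene of the secreted Wnt antagonist sclerostin, changes the root under a diet that promotes calcific valve disease. The labels name neither the deleted part of Sost nor the animal behind each root, so p-values reflect variation among these 6 samples, which may in part be technical.

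Fatty acids are activated to acyl-CoA in the cytoplasm, carried into mitochondria by the carnitine shuttle and shortened there by repeated rounds of dehydrogenation, hydration, dehydrogenation and thiolysis. Electrons from the first dehydrogenation pass through electron transfer flavoprotein to the respiratory chain. Peroxisome proliferator-activated receptors (PPARs) are nuclear receptors that bind DNA with the retinoid X receptor when lipid ligands are present, and they switch on many genes of this route. Heart muscle draws most of its energy from fatty acid oxidation, and its cells hold far more mitochondria than those of the vessel wall.

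Total counts were 41803775, 38870673 and 39365312 in the libraries labelled Sost-/-, against 48172863, 40756468 and 37023586 in those labelled Sost+/+. Sost itself had 2284, 1063 and 513 counts in the libraries labelled Sost-/-, against 354, 621 and 274 counts in those labelled Sost+/+. Sost counts were thus not lower under the label Sost-/-, and the difference did not pass the test (log2 fold change 1.56, SE 0.48, edgeR adjusted p = 0.124). The reason was not tested, so each direction below is that of the libraries labelled Sost-/- relative to those labelled Sost+/+. Which exons the Sost reads lie in is not resolved by a count per gene. Heart muscle RNA was abundant in every library, as Myh6, the atrial and adult heart myosin heavy chain of the mouse, lay between 22643 and 37104 CPM (counts per gene scaled to a common library size with TMM factors). The smooth muscle myosin Myh11 lay between 170 and 1096 CPM. Liver RNA was near absent, with at most 7 counts of Alb in a library.

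Promoter windows were searched for elements that nuclear receptors bind, because the genes are grouped here as PPAR targets. RefSeq windows from 250 bases before to 50 bases after the start of transcription (GRCm38.p6, the assembly of mm10) were held for 26 of the 31 genes. Cpt1b, Decr1, Acaa2, Acat1 and Angptl4 had no entry. Windows are shown for Pdk4, the member of smallest p, for Acadvl, which holds a receptor hexamer, and for Hadhb, whose window holds most of the stretch between its own RefSeq start and that of Hadha. Capitals mark the receptor hexamer AGGTCA, and lower case marks all other bases.
Pdk4, chr6:5496229-5496528, minus strand: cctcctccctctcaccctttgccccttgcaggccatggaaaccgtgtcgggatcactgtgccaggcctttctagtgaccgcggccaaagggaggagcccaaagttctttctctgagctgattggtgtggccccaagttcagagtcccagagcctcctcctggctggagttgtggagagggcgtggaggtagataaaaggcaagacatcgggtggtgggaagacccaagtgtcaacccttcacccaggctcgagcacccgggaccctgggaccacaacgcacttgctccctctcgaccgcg
Acadvl, chr11:70015379-70015678, minus strand: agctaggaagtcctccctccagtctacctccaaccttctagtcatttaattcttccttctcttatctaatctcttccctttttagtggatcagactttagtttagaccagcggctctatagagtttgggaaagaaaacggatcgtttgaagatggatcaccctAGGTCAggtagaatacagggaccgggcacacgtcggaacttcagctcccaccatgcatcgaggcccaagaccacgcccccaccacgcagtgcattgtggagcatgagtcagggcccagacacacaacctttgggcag
Hadhb, chr5:30155003-30155302, plus strand: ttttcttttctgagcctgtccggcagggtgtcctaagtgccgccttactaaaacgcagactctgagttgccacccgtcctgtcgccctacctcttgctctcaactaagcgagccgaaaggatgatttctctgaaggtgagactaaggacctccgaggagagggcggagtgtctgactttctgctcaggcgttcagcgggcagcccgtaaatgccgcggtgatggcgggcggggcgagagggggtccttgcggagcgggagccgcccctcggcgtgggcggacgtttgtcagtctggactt

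The hexamer AGGTCA, read on both strands, was present in the windows of Cpt1a, Acadm, Acadvl and Ucp3. These 4 genes are 15.4% of the 26 with a window, and 18.1% of all 27025 genes with a window held it. The exact direct repeat of the hexamer with 1 base between is the element called DR1 (AGGTCANAGGTCA, overlapping the hexamer by construction). It was in 0 of the 26 genes, which have 27 windows, and in 0.0481% of all genes. With at most 2 mismatches, DR1 matched in Slc25a20, Etfa and Ucp3, or 11.5% of the 26 genes, against 4.40% of all genes. The 13 bases that matched are given because they are the nearest to the PPAR element among the 26, with capitals for the whole match.
Slc25a20, chr9:108662142-108662154, plus strand, 2 mismatches: AGGTGAAAGGTCG
Etfa, chr9:55512308-55512320, minus strand, 2 mismatches to the reverse complement: TTACCTTTGCCCT
Ucp3, chr7:100472940-100472952, plus strand, 2 mismatches: AGGTTTCAGGTCA

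The extended hexamer TCAAGGTCA, the type bound by oestrogen-related receptors, was in 0 of the 26 genes and in 0.466% of all genes. The E-box CACGTG, a sequence that clock activators bind, was in 0 of the 26 genes and in 8.09% of all genes. A match is a description of letters, and no match says only that those letters are not in these 300 bases.

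No member passed the test. Of 31 genes tested, 0 were higher and 0 were lower at an adjusted p under 0.05 (edgeR quasi-likelihood test, adjusted over 15096 genes), while 2.55% of all genes passed in either direction (329 higher and 56 lower) and 0.371% were called lower. Most members nevertheless had negative log2 fold changes: 26 were below 0 and 5 above, where 48.7% of all genes were below 0. Their median was -0.23, against 0.0066 for all genes tested. At an unadjusted p under 0.05, 8 members were lower, against 8.62% of all genes. For 7 members, all 3 libraries labelled Sost-/- lay below all 3 labelled Sost+/+, against 11.1% of all genes. The reverse was found for 0 members and for 14.3% of all genes. DESeq2 called 5 members lower (Pdk4, Etfb, Mlycd, Acadvl and Ech1, with adjusted p = 0.00353, 0.0114, 0.0255, 0.0258 and 0.0424) and 0 higher, while it called 2.68% of all genes lower. That count depends on the libraries: it was 0 without Sost-/- replicate 3, 1 without Sost+/+ replicate 1 or 2, 2 without Sost-/- replicate 2, 9 without Sost-/- replicate 1 and 13 without Sost+/+ replicate 3. The number of all genes that DESeq2 called lower moved as well. In the same order of fits it was 82, 206, 261, 292, 479 and 704, against 406 with all libraries. With 3 libraries a group, the edgeR test recovered 32% of genes made to change by 0.5 on the log2 scale in simulated counts of this design, and 81% of those made to change by 1.

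**Figure D1:**
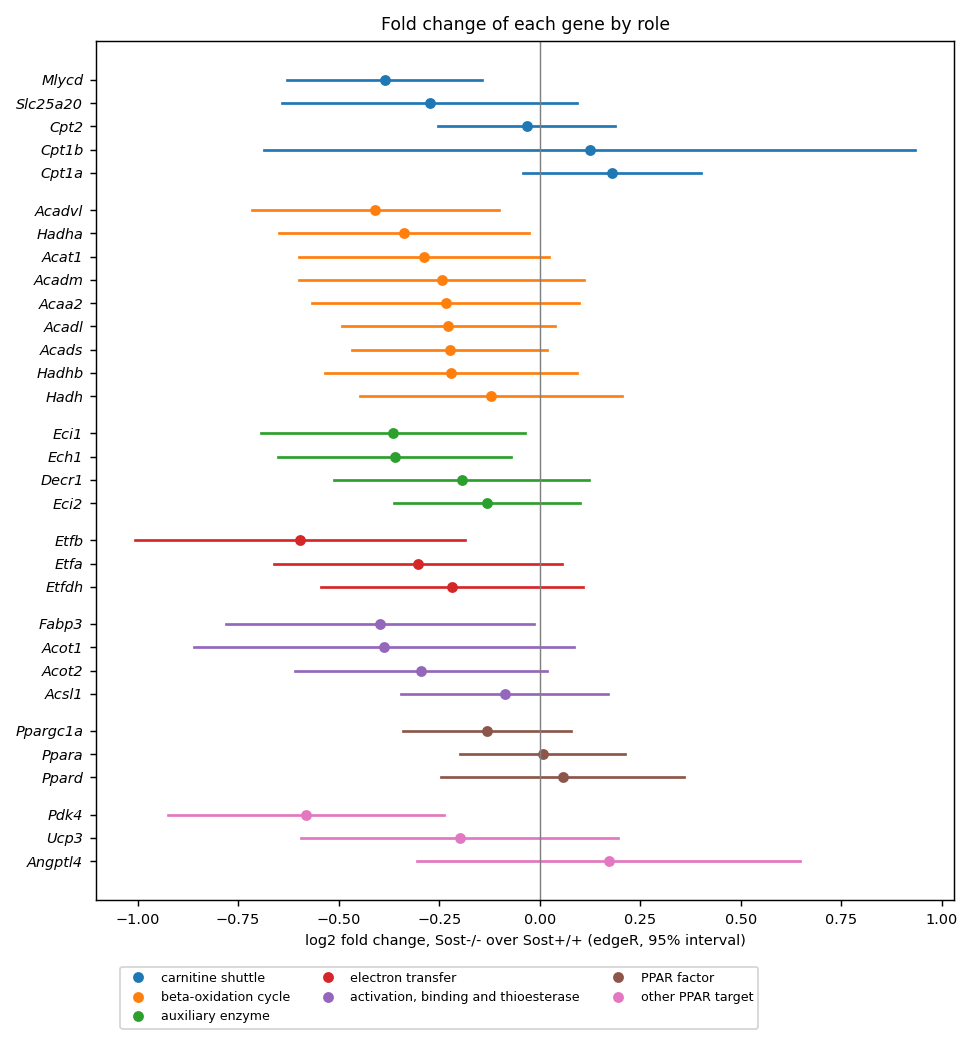
Log2 fold change of each of the 31 genes (libraries labelled Sost-/- over those labelled Sost+/+, x axis), grouped and coloured by role. Points are edgeR estimates and bars are 95% intervals. Points of 26 genes lie left of 0, and the interval of Cpt1b, the gene with the fewest counts, is the widest.

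Most cardiomyocyte markers also had negative log2 fold changes. Of 28 such markers, none of them a member, 0 passed as higher and 2 as lower (Nppb and Csrp3), with a median log2 fold change of -0.42. Of the 28, 26 were below 0, and the atrial myosin light chains Myl4 (0.65, adjusted p = 0.533) and Myl7 (0.46, adjusted p = 0.67) were above. DESeq2 called 16 of the 28 lower. Their summed level was 107602, 94535 and 88856 CPM in the libraries labelled Sost-/-, against 136769, 128932 and 125118 CPM in those labelled Sost+/+. The groups did not overlap in that sum. The summed level of the 31 members was 15804, 13989 and 12867 CPM in the libraries labelled Sost-/-, against 20350, 17073 and 15156 CPM in those labelled Sost+/+. Here Sost-/- replicate 1 lay above Sost+/+ replicate 3, so the groups overlapped. In bulk RNA, fewer heart muscle cells in a piece and less of these RNAs in each cell cannot be told apart.

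When library sizes were instead scaled to the cardiomyocyte markers, the median over all genes moved to 0.42 and that of the members to 0.19. On that scale 29 of 31 members were above 0, as were 94.9% of all genes, and the remaining members were Pdk4 and Etfb, both at -0.16. The test called 7 members higher on that scale (Cpt1a, Cpt2, Hadh, Eci2, Acsl1, Ppara and Ppargc1a), where 48.1% of all genes were called higher (7258 higher and 11 lower). The members' median stood at percentile 15.4 of all genes with TMM and at percentile 15.6 with the cardiomyocyte scale. The sign of most members therefore depends on the scale, and the values below are on the TMM scale.

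Pdk4 had the smallest p among the members. It encodes pyruvate dehydrogenase kinase 4, which blocks the entry of pyruvate into the citric acid cycle and is a well known PPAR target. The gene (ENSMUSG00000019577.6) lies at chr6:5483351-5496309 on the minus strand in GENCODE M21 (GRCm38). Pdk4 had 258, 283 and 253 CPM in the libraries labelled Sost-/-, against 387, 487 and 314 CPM in those labelled Sost+/+. Every Sost-/- value was below every Sost+/+ value, and the Sost+/+ values spread more widely. The log2 fold change was -0.58 (SE 0.15, 95% interval -0.92 to -0.24, edgeR adjusted p = 0.0859). Pdk4 took 34.4%, 42.7% and 36.2% of the counts of the 4 kinase genes Pdk1 to Pdk4 in the libraries labelled Sost-/-, against 46.1%, 50.7% and 40.6% in those labelled Sost+/+. This share does not depend on library scaling. It overlapped between the groups, with means of 37.8% ± 4.34 in Sost-/- and 45.8% ± 5.05 in Sost+/+ (SD, n = 3 each, exact two-sided permutation p = 0.2, adjusted p = 0.8 over 4 shares, where 0.1 is the smallest p possible).

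The other PPAR targets outside the oxidation route gave smaller differences. Ucp3, the uncoupling protein of muscle mitochondria, averaged 30.7 ± 3.57 CPM in Sost-/- and 35.2 ± 9.15 CPM in Sost+/+ (SD, n = 3 each). Angptl4, a secreted inhibitor of lipoprotein lipase that adipocytes also make, had 14.3, 26.2 and 20.4 CPM in Sost-/-, against 15.9, 21.9 and 16.1 CPM in Sost+/+ libraries. Its highest value was in Sost-/- replicate 2. The same library had the highest summed level of 13 white adipocyte markers, which was 439, 1316 and 829 CPM in Sost-/-, against 437, 411 and 213 CPM in Sost+/+. Of those 13 markers, 0 passed the edgeR test, while DESeq2 called 2 higher and 0 lower. Of the 13, 12 were above 0 and the median was 1.20. The part of adipocyte RNA in the Angptl4 level was not tested.

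**Figure D2:**
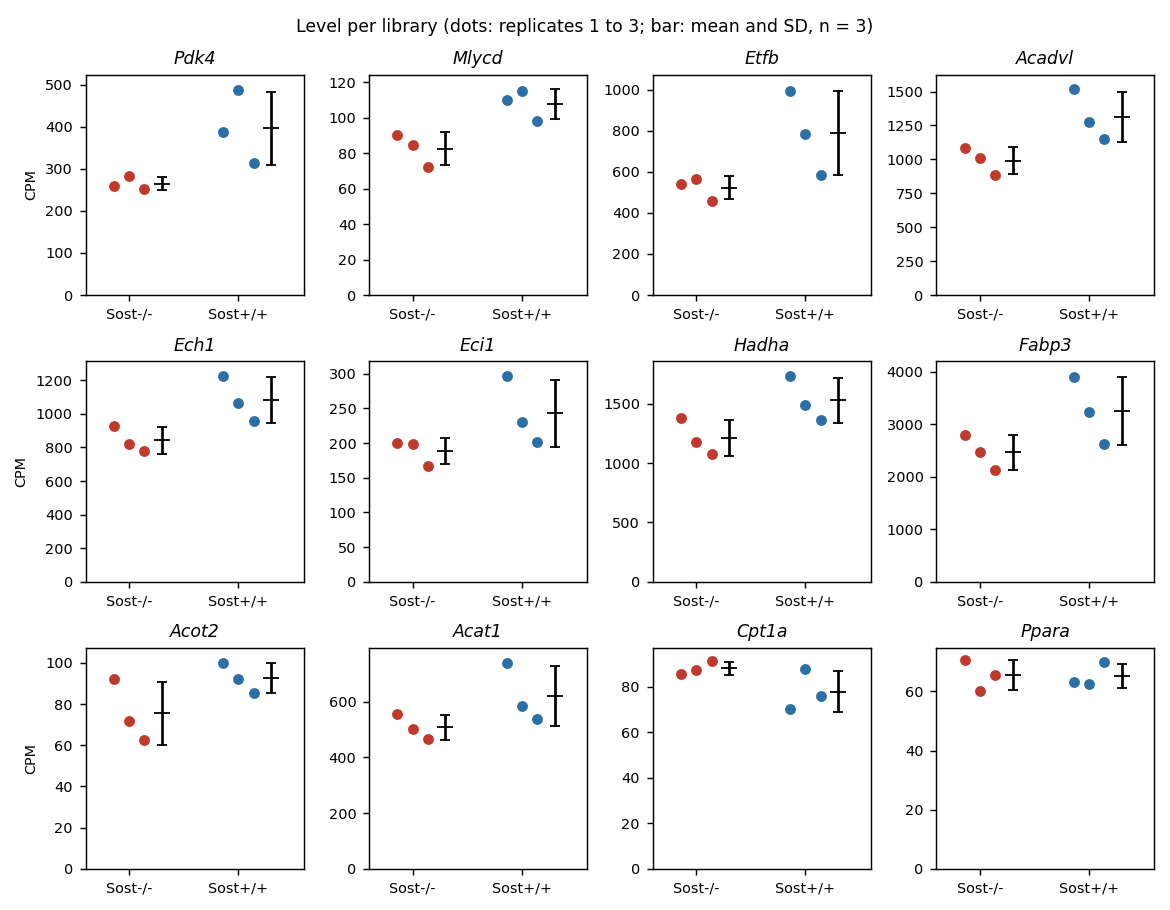
Level of 12 genes in CPM (y axis, from 0) in each library, with the 3 libraries labelled Sost-/- in red and the 3 labelled Sost+/+ in blue. Points run from replicate 1 to 3, and the bar beside them is the mean with SD (n = 3). Pdk4, Mlycd, Etfb, Acadvl, Ech1 and Eci1 do not overlap between the groups, and Cpt1a and Ppara do.

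The carnitine shuttle genes divided by member. Mlycd encodes malonyl-CoA decarboxylase, which removes the inhibitor of carnitine palmitoyltransferase 1 (chr8:119394878-119411102, plus strand). Mlycd had 90.5, 84.8 and 72.2 CPM in Sost-/-, against 110, 115 and 98.4 CPM in Sost+/+ libraries. The groups did not overlap (log2 fold change -0.39, SE 0.11, adjusted p = 0.10). Cpt1a, the carnitine palmitoyltransferase 1 form typical of liver, had 85.8, 87.5 and 91.3 CPM in Sost-/-, against 70.1, 87.7 and 76.0 CPM in Sost+/+. It had the highest log2 fold change of the 31 members, 0.18 (SE 0.10, adjusted p = 0.342), with 1 Sost+/+ library inside the Sost-/- range. Cpt2, the inner membrane transferase, was nearly equal at 168 ± 16.7 CPM in Sost-/- and 172 ± 6.95 CPM in Sost+/+ (SD, n = 3 each, log2 fold change -0.03, 95% interval -0.25 to 0.19). Slc25a20, the carnitine-acylcarnitine carrier, had a log2 fold change of -0.27 (SE 0.16, adjusted p = 0.379).

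Cpt1b, the form of carnitine palmitoyltransferase 1 known from heart and skeletal muscle, was close to the floor of the table. It had 61, 24 and 55 counts in Sost-/-, against 39, 44 and 39 counts in Sost+/+ libraries. Those are 1.24% ± 0.51 of the Cpt1a and Cpt1b counts in Sost-/- and 1.29% ± 0.08 in Sost+/+ (SD, n = 3 each, exact two-sided permutation p = 1). In GENCODE M21, 2744 of the 3372 exon bases of Cpt1b (81.4%, chr15:89416405-89425863, minus strand) are also exon of Gm44502, a gene model on the same strand. Gm44502 is not a row of the count table. The level of Cpt1b and its share in these libraries are therefore uncertain, and its log2 fold change of 0.12 (SE 0.36) says little.

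All 9 genes of the oxidation cycle had negative log2 fold changes, and 0 passed. Acadvl, the very long chain acyl-CoA dehydrogenase of the inner membrane (chr11:70010183-70015411, minus strand), had 1083, 1009 and 881 CPM in Sost-/-, against 1516, 1277 and 1153 CPM in Sost+/+ libraries. Its groups did not overlap (log2 fold change -0.41, SE 0.14, adjusted p = 0.147). Of its exon bases, 42.9% overlap the opposite strand of Dvl2 in GENCODE M21, and the strand setting of the counting is not given in the sources used here. The medium chain dehydrogenase Acadm (-0.24), the long chain enzyme Acadl (-0.23) and the short chain enzyme Acads (-0.22) had smaller differences. Acads had 200, 167 and 155 CPM in Sost-/-, against 207, 202 and 200 CPM in Sost+/+, so that its groups met without overlapping.

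Hadha and Hadhb encode the alpha and beta subunits of the mitochondrial trifunctional protein, which carries out the later steps for long chains. The genes lie head to head on chromosome 5, with RefSeq starts 273 bases apart. The window printed above holds the Hadhb start and ends short of the Hadha start. Hadha had 1376, 1173 and 1078 CPM in Sost-/-, against 1733, 1491 and 1361 CPM in Sost+/+. Hadhb had 1151, 933 and 911 CPM in Sost-/-, against 1332, 1045 and 1113 CPM in Sost+/+. In both genes Sost-/- replicate 1 lay above at least 1 Sost+/+ library. Their log2 fold changes were -0.34 (SE 0.14, adjusted p = 0.214) for Hadha and -0.22 (SE 0.14, adjusted p = 0.405) for Hadhb. Acat1, the acetoacetyl-CoA thiolase that also serves ketone bodies, had 555, 504 and 467 CPM in Sost-/-, against 741, 585 and 537 CPM in Sost+/+ (log2 fold change -0.29, adjusted p = 0.279). Its highest Sost-/- library lay above the lowest Sost+/+ library. The thiolase Acaa2 stood at -0.23 and the short chain hydroxyacyl-CoA dehydrogenase Hadh at -0.12, the nearest to 0 of the 9.

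The auxiliary enzymes, which handle double bonds of unsaturated fatty acids, included 2 genes without overlap. Ech1, a dienoyl-CoA isomerase (chr7:28825217-28832247, plus strand), had 930, 818 and 778 CPM in Sost-/-, against 1226, 1064 and 955 CPM in Sost+/+. Eci1, an enoyl-CoA isomerase (chr17:24426641-24439348, plus strand), had 200, 199 and 167 CPM in Sost-/-, against 296, 231 and 202 CPM in Sost+/+. In both, Sost+/+ replicate 3 was the Sost+/+ library nearest to the Sost-/- values. The log2 fold changes were -0.36 (SE 0.13, adjusted p = 0.165) for Ech1 and -0.37 (SE 0.15, adjusted p = 0.208) for Eci1. Decr1, the dienoyl-CoA reductase, and the second isomerase Eci2 lay closer to 0, at -0.19 and -0.13.

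Etfb, the beta subunit of electron transfer flavoprotein, had the lowest log2 fold change of the 31 genes. It had 543, 565 and 458 CPM in Sost-/-, against 996, 784 and 587 CPM in Sost+/+ (chr7:43444083-43457800, plus strand). The groups did not overlap, but the lowest Sost+/+ library was close to the highest Sost-/- library (log2 fold change -0.60, SE 0.18, adjusted p = 0.123). In GENCODE M21, 53.0% of the exon bases of Etfb are also exon of the same-strand model Gm45233, so its level is uncertain. The alpha subunit gene Etfa averaged 563 ± 49.8 CPM in Sost-/- and 694 ± 154 CPM in Sost+/+ (SD, n = 3 each, log2 fold change -0.30, adjusted p = 0.321). Etfdh, which passes the electrons on to ubiquinone, had a log2 fold change of -0.22 (SE 0.15).

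Fabp3, the fatty acid binding protein of heart muscle, had by far the highest level per exon length, at 3002 CPM per kb in Sost-/- and 3952 CPM per kb in Sost+/+. It had 2803, 2472 and 2137 CPM in Sost-/-, against 3907, 3234 and 2616 CPM in Sost+/+. Sost+/+ replicate 3 lay between the Sost-/- libraries, so the groups overlapped (log2 fold change -0.40, SE 0.17, adjusted p = 0.232). Acsl1, the main long chain acyl-CoA synthetase of heart, had a log2 fold change of -0.09 (SE 0.12) and took 89.4% ± 0.96 of the counts of the 5 genes Acsl1, Acsl3, Acsl4, Acsl5 and Acsl6 in Sost-/- and 89.8% ± 0.61 in Sost+/+ (SD, n = 3 each, exact two-sided permutation p = 0.7). Acot2, a mitochondrial acyl-CoA thioesterase, had 92.2, 71.7 and 62.6 CPM in Sost-/-, against 100, 92.3 and 85.3 CPM in Sost+/+. Sost-/- replicate 1 was within the Sost+/+ range (log2 fold change -0.30, SE 0.14, adjusted p = 0.272). Its cytosolic paralog Acot1 starts 21641 bases away on chromosome 12 and may share reads with it. Acot1 averaged 14.3 ± 2.42 CPM in Sost-/- and 18.8 ± 5.46 CPM in Sost+/+, and its share of the pair's counts was 16% ± 1.36 in Sost-/- and 16.6% ± 3.01 in Sost+/+ (SD, n = 3 each, exact two-sided permutation p = 0.9).

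**Figure D3:**
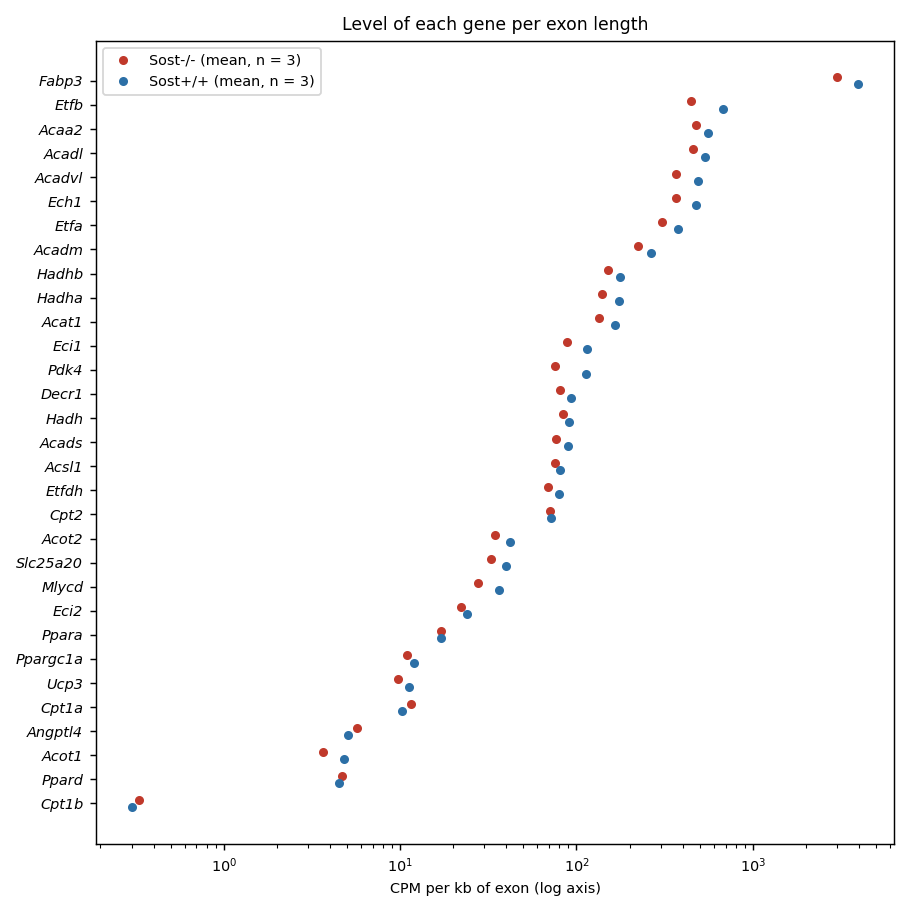
Mean level of each gene in CPM per kb of exon (x axis, log scale), with the libraries labelled Sost-/- in red and those labelled Sost+/+ in blue (n = 3 each). Genes are ordered by the Sost+/+ level, from Fabp3 at 3952 to Cpt1b at 0.303 CPM per kb.

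The receptor genes and their coactivator had values close to 0. Ppara, the PPAR form that leads in heart and liver, had 70.5, 60.3 and 65.5 CPM in Sost-/-, against 63.2, 62.4 and 69.9 CPM in Sost+/+ (log2 fold change 0.0073, 95% interval -0.20 to 0.21). Ppard, the broadly expressed form, had 38.5, 31.5 and 35 CPM in Sost-/-, against 27.2, 35.9 and 37.9 CPM in Sost+/+ (log2 fold change 0.06, 95% interval -0.25 to 0.36). Ppargc1a, the coactivator PGC-1alpha that raises mitochondrial gene expression, had 74.4, 68.0 and 73.4 CPM in Sost-/-, against 87.1, 73.8 and 75.5 CPM in Sost+/+ (log2 fold change -0.13, 95% interval -0.34 to 0.08). All 3 genes overlapped between the groups. Esrra, the oestrogen-related receptor that works with this coactivator, is no member. It was named as the gene of smallest p among 26 PPAR partners and coregulators, of which 12 lay above 0 and 14 below. Esrra had 173, 178 and 121 CPM in Sost-/-, against 228, 223 and 215 CPM in Sost+/+, without overlap (log2 fold change -0.50, SE 0.14, edgeR adjusted p = 0.107, DESeq2 adjusted p = 0.0154).

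Most members shared 1 order of libraries. Sost-/- replicate 1 was the highest Sost-/- library for 26 of the 31 genes and Sost-/- replicate 3 the lowest for 25. Within Sost+/+, replicate 1 was the highest for 23 and replicate 3 the lowest for 22. The mean of the members, each centred on its own mean log2 CPM, was 0.009, -0.112 and -0.228 in Sost-/-, against 0.264, 0.126 and -0.058 in Sost+/+ libraries. Sost-/- replicate 1 thus lay above Sost+/+ replicate 3. The summed cardiomyocyte markers had the same order within each group, but their groups did not overlap. That sum is weighted towards the markers of highest level. The mean log2 CPM of the same 28 markers did not keep the order, at 10.73, 10.61 and 10.65 in Sost-/-, against 11.01, 11.07 and 10.99 in Sost+/+. The part of the cardiomyocyte markers in the order of the members was not tested. Without Sost+/+ replicate 1, the highest library, the members' median was -0.13, and Slc25a20 stood at -0.11, Acaa2 at -0.10, Etfa at -0.13, Acadm at -0.0827 and Decr1 at -0.0436.

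**Figure D4:**
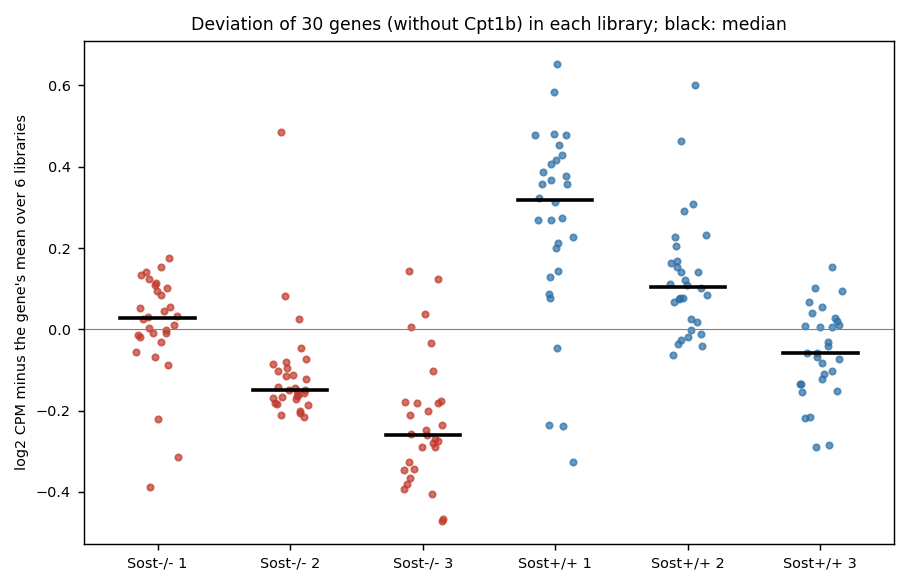
Deviation of 30 genes (without Cpt1b) from their own mean log2 CPM over the 6 libraries (y axis) in each library (x axis), with libraries labelled Sost-/- in red and those labelled Sost+/+ in blue. Each point is a gene and the black line is the median. Sost-/- replicate 1 lies above Sost+/+ replicate 3, and Sost+/+ replicate 1 is highest.

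The genes whose log2 CPM followed the mean profile of the members most closely over the 6 libraries, among 9509 genes of a mean CPM of at least 10 outside the lists, included Trim63 (Pearson r = 0.998), Mrpl14 (0.990), Mrpl28 (0.989) and Rdh14 (0.987). Trim63 encodes a ubiquitin ligase of muscle, and Mrpl14 and Mrpl28 encode proteins of the mitochondrial ribosome. These correlations describe 6 libraries that share depth and tissue make-up, and the genes were picked from the highest of 9509. None of these 4 passed the test (adjusted p = 0.158 to 0.356).

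Other genes of lipid and fuel use were counted in 9 lists of 180 genes. Of the 174 tested, 4 were higher and 0 lower, with a median log2 fold change of -0.0044, and DESeq2 called 11 higher and 8 lower. Over all genes, edgeR called 2.18% higher and DESeq2 4.96%, so the edgeR share in these lists was near that of the whole table. Cpt1c, Scd1 and Pfkfb3 were among the genes that rose. Cpt1c, a form of carnitine palmitoyltransferase 1 known from brain, had 22.5, 24.3 and 26.6 CPM in Sost-/-, against 15, 17.2 and 13.3 CPM in Sost+/+ (log2 fold change 0.69, SE 0.12, adjusted p = 0.0261). The groups did not overlap. Scd1, the stearoyl-CoA desaturase that adipocytes make in quantity, had 163, 269 and 229 CPM in Sost-/-, against 96.9, 128 and 92.5 CPM in Sost+/+ (log2 fold change 1.06, SE 0.19, adjusted p = 0.0279). Its highest library, Sost-/- replicate 2, was also that of the highest white adipocyte sum given above, and the part of those markers was not tested. Pfkfb3, which makes the activator of phosphofructokinase, had 30.2, 45.9 and 35.6 CPM in Sost-/-, against 20.7, 23.0 and 21.5 CPM in Sost+/+ (log2 fold change 0.78, SE 0.14, adjusted p = 0.0296). In edgeR these 3 calls ended without Sost+/+ replicate 1, without Sost+/+ replicate 3 and without Sost-/- replicate 3. Over all genes, 0 passed without Sost+/+ replicate 1 (2262 at an unadjusted p under 0.05) and 10 without Sost-/- replicate 3. Without Sost+/+ replicate 3, 118 genes passed. The 3 calls also ended with the cardiomyocyte score as a covariate, where 0 of all genes passed (944 at an unadjusted p under 0.05). That score does not overlap between the groups, so the part of heart muscle in these calls was not tested. In that fit Pfkfb3 stood at -0.24, Scd1 at 0.33 and Cpt1c at 0.89. Of the 3, only Pfkfb3 remained called without Sost-/- replicate 2, and only Pfkfb3 lost its call without Sost+/+ replicate 2. DESeq2 called all 3 with all libraries and without each library in turn.

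The lists differed in where their medians lay. Other mitochondrial fatty acid oxidation enzymes had a median of -0.11 over 22 genes, of which 18 were below 0. Pyruvate entry and glucose uptake had a median of -0.18 over 22 genes. Peroxisomal beta-oxidation had a median of -0.0018 over 25 genes, and its gene of smallest p, the oxidase Acox3, had a log2 fold change of 0.31 (adjusted p = 0.0851). Fatty acid uptake and activation had a median of -0.06 over 21 tested genes, and its gene of smallest p was Gpihbp1, the capillary anchor of lipoprotein lipase (-0.49, adjusted p = 0.0614). PPAR partners and coregulators had a median of -0.0035 over 26 genes, lipid droplet genes 0.09 over 22, other PPAR targets 0.02 over 19, fatty acid synthesis genes 0.22 over 19 and ketone body genes 0.43 over 9. Fitm1, a lipid droplet gene of muscle, had the smallest p of its list (-0.44, adjusted p = 0.0925). By role, the medians of the members were -0.23 for the cycle, -0.28 for auxiliary enzymes, -0.30 for electron transfer and -0.34 for activation, binding and thioesterases. They were -0.03 for the carnitine shuttle, -0.20 for the other PPAR targets and 0.0073 for the PPAR factors. The shuttle median includes Cpt1b, whose level is uncertain, beside Mlycd at -0.39, Slc25a20 at -0.27, Cpt2 at -0.03 and Cpt1a at 0.18.

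**Figure D5:**
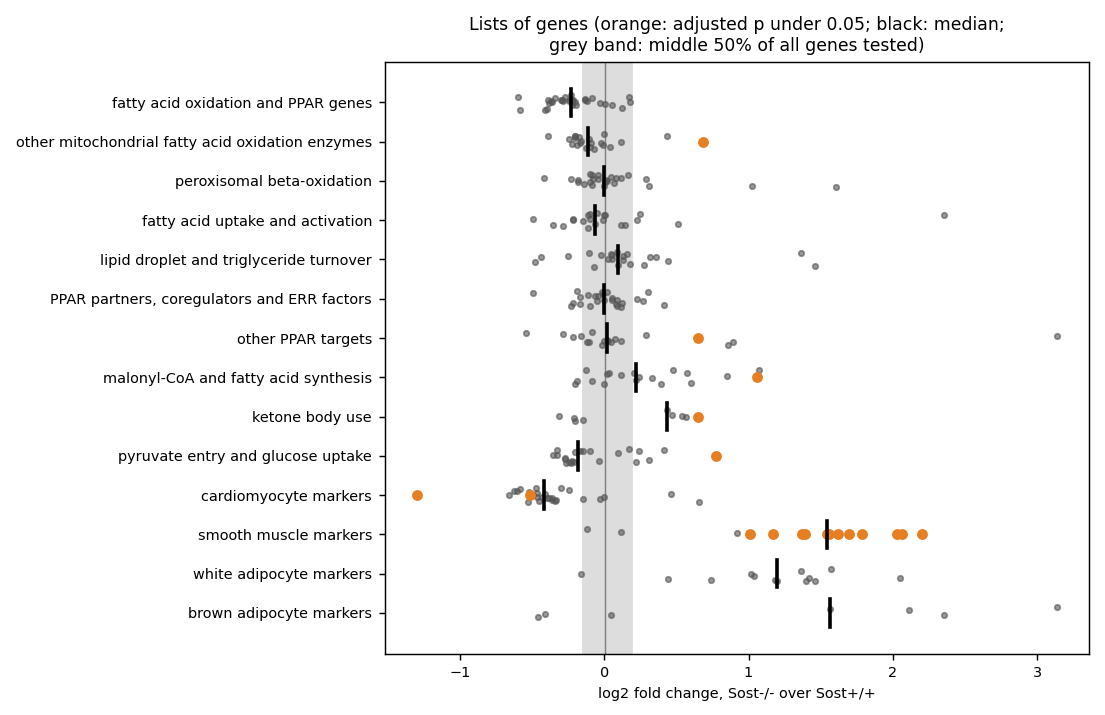
Log2 fold change (libraries labelled Sost-/- over those labelled Sost+/+, x axis) of every tested gene in the 31 members, the other fuel lists and marker lists of heart muscle, smooth muscle and adipocytes. Orange points passed the edgeR test, black lines are medians and the grey band holds the middle 50% of all genes. The median of the members lies between that of all genes and that of the cardiomyocyte markers, at -0.42.

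Smooth muscle markers and clock genes also held edgeR calls in the same libraries. Of 15 smooth muscle markers, 12 were higher and 0 lower, with a median of 1.54, and their summed level was 5890, 4808 and 7169 CPM in Sost-/-, against 1937, 3281 and 1772 CPM in Sost+/+. Of 7 tested brown adipocyte markers, 0 passed in edgeR and DESeq2 called 1 higher (Otop1) and 1 lower (Dio2). Of the 7, 5 were above 0 and 2 below, with a median of 1.56. Ucp1, the thermogenic uncoupling protein, had 5.33, 83.6 and 92.7 CPM in Sost-/-, against 6.19, 11.2 and 3.13 CPM in Sost+/+ (log2 fold change 3.14, adjusted p = 0.093). Dio2, which activates thyroid hormone, averaged 30.4 ± 5.45 CPM in Sost-/- and 41.7 ± 5.16 CPM in Sost+/+ (SD, n = 3 each), and Cox8b stood at -0.41 and Cidea at 0.05. Fibroblast, endothelial and macrophage markers (10 each) and 12 tested skeletal muscle markers gave 0 calls in edgeR, with medians of 0.27, -0.12, 0.12 and 0.02. DESeq2 called 3 fibroblast markers, 0 endothelial, 2 macrophage and 0 skeletal muscle markers, all of them higher. The defining skeletal muscle genes Myh4 and Myh2 had at most 7 and 10 counts in a library. In the same list, Acta1 lay between 765 and 1935 CPM and Mybpc2 between 78.7 and 152 CPM. Ckm, also counted among the cardiomyocyte markers, lay between 1025 and 1753 CPM. Of 15 clock genes, whose factors bind many metabolic genes, 7 were higher and 1 lower, with Per3 at 1.39 and Arntl at -0.94. The part of these lists in the members' values was not tested.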

How the data were processed

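Read counts per gene symbol were deposited by the authors as whole numbers for 6 libraries, and a second deposited table holds normalized signal, in which each library's counts have been divided by a constant. Those constants matched size factors recomputed with DESeq2 (largest relative difference 1.22e-15). The tools DRAGEN, HTSeq and DESeq2 and the build mm10 are known per the submitters' processing notes, while versions, annotation and strand setting were not given in the sources used here. Libraries were prepared with a directional kit, per the labels' protocols. Samples were grouped by genotype label, and replicate numbers follow accession order, with no pairing.

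Of 23420 genes, 3648 were 0 in every library, and filterByExpr with a minimum count of 10 and a minimum total of 15 kept 15096. After TMM scaling, glmQLFTest of edgeR 4.0.16 on R 4.3.3 gave p-values, adjusted by Benjamini-Hochberg over all genes kept, with a threshold of 0.05. The SE is the absolute log2 fold change over the square root of F, and the 95% interval uses the t quantile at 9.2 degrees of freedom. The common biological coefficient of variation was 0.141. Fold changes are Sost-/- over Sost+/+. Shares within enzyme families were tested by exact permutation of the 6 libraries, two-sided. Exon lengths, positions and overlaps come from GENCODE M21 (GRCm38), and promoter windows from RefSeq (GRCm38.p6).

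The edgeR step was tested on simulated counts of this comparison over 15000 genes, where 11 of 124 calls were false. Alternatives were other scalings, filters and tests (DESeq2 1.42.0, limma 3.58.1 with voom, limma on log2 of the deposited normalized signal plus a pseudocount of 1), robust dispersion, a cardiomyocyte covariate or scaling, and each library left out. DESeq2 with a library left out was added after seeing the data. Single genes were named by rule: the 10 members of smallest p, the PPAR factors, Cpt1a and Cpt1b, up to 4 genes that passed or the 1 of smallest p per other list, and at most 3 markers per cell type. Acads, Myh6, Myh11, Myl4, Myl7, Alb, Cox8b, Cidea, Myh2, Myh4, Acta1 and further members were also named, chosen after their values were seen. The members and lists were chosen with earlier results of these data known. Proteins were not used here, and 2 genes that the rule names are not reported here.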

Additional observations from a re-analysis of the deposited data

How the results depend on the processing

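No paired analysis was possible because the labels give no replicate numbers that the groups share. The direction of most members depends on the scale, and the cause was not tested. Scaling by DESeq2's size factors, the deposited normalized values with limma and DESeq2 each turned the sign of Ppara and of no other member, to -0.00209, -0.00498 and -0.00316. DESeq2 called 1159 genes (753 higher and 406 lower) and 5 members lower, and without a filter on low counts edgeR called 1 member, Pdk4. Upper-quartile scaling, limma-voom, robust dispersion and a filter of CPM of at least 1 in 3 libraries left 0 members called and every sign as it was.

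Scaled to the cardiomyocyte markers, edgeR called 7269 genes (7258 higher and 11 lower) and 7 members higher, with a member median of 0.19. Signs turned for Cpt2 0.38, Acsl1 0.32, Hadh 0.30, Eci2 0.29, Ppargc1a 0.29, Decr1 0.23, Ucp3 0.21, Etfdh 0.20, Acadl 0.19, Hadhb 0.19, Acaa2 0.19, Acadm 0.18, Acads 0.18, Slc25a20 0.15, Acat1 0.14, Etfa 0.13, Acot2 0.11, Hadha 0.0787, Eci1 0.0604, Ech1 0.0577, Acot1 0.0404, Fabp3 0.0254, Mlycd 0.0248 and Acadvl 0.0105. With the cardiomyocyte score as a covariate, whose values do not overlap between the groups, 0 genes passed in edgeR, with 944 at an unadjusted p under 0.05, and the member median was 0.25. Signs turned for Ucp3 0.89, Acot2 0.65, Hadh 0.46, Slc25a20 0.45, Acaa2 0.40, Cpt2 0.38, Acads 0.38, Etfdh 0.37, Acsl1 0.29, Acot1 0.27, Fabp3 0.27, Hadha 0.26, Acadm 0.24, Eci2 0.23, Hadhb 0.22, Mlycd 0.19, Ech1 0.15, Decr1 0.15, Acadl 0.13, Etfa 0.0945, Pdk4 0.0628, Acat1 0.0412 and Angptl4 -0.85.

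With each library left out in turn, edgeR called 0 to 349 genes, 0 to 1 members lower and 0 higher, with member medians of -0.34 to -0.13. The 1 call was Pdk4 without Sost+/+ replicate 3. The counts of genes were 0 without Sost+/+ replicate 1 (2262 at an unadjusted p under 0.05), 10 without Sost-/- replicate 3, 118 without Sost+/+ replicate 3 and 218 without Sost-/- replicate 2. Without Sost+/+ replicate 1, the values of Acot1 (-0.18), Acat1 (-0.15), Eci1 (-0.21), Fabp3 (-0.26), Hadhb (-0.13), Etfdh (-0.0958), Eci2 (-0.0753), Ppargc1a (-0.0671) and Cpt1a (0.0944) also came nearer to 0 by over 1.5 times, as did Acot2 (-0.18), Acsl1 (-0.0219), Eci2 (-0.0763), Etfdh (-0.14) and Ucp3 (-0.11) without Sost-/- replicate 3. Signs turned within the ranges of Cpt2 (-0.12 to 0.013), Hadh (-0.23 to 0.0114), Ucp3 (-0.38 to 0.00693), Ppara (-0.0506 to 0.062), Ppard (-0.0895 to 0.14), Cpt1b (-0.0969 to 0.42) and Angptl4 (-0.055 to 0.37). Without Sost+/+ replicate 1, DESeq2 called 626 genes (420 higher and 206 lower), among them 1 member, which was lower (Hadh 0.00972, Ppara -0.0285, Ppard -0.0909). It called 961 genes (700 higher and 261 lower) and 1 member lower without replicate 2 (Ucp3 0.000691, Ppara -0.0319). Without replicate 3 it called 1339 genes (635 higher and 704 lower) and 13 members lower. It called 1209 genes (730 higher and 479 lower) and 9 members lower without Sost-/- replicate 1 (Cpt1b -0.11, Ppara -0.0654, Ppard -0.0341). Without replicate 2 the counts were 838 genes (546 higher and 292 lower) and 2 members lower (Angptl4 -0.0673). They were 368 genes (286 higher and 82 lower) and 0 members without replicate 3 (Cpt1b -0.0168, Cpt2 0.00855). The difference in the share of Pdk4 ran from -10.6 to -5.59 percentage points, and those of the other 3 shares took both signs.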
